A study of Homo sapiens with 40 samples.

Results

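GRANTA519 is an established human line of mantle cell lymphoma, and its baseline state was described here from the 5 arrays on which it had been exposed to DMSO, the solvent control, for 2, 4, 8, 12 and 24 h. These are 5 of the 40 arrays of the series and 5 of its 20 DMSO arrays. They were set against the 15 DMSO arrays of JEKO1, MAVER1 and REC1, established lines of the same lymphoma, with 5 arrays per line at the same times. The remaining 20 arrays were of the same lines exposed to OTX015, a BET bromodomain inhibitor, and entered only the normalization. Total RNA was hybridised to Illumina bead arrays of 1 colour, and each combination of line, treatment and time had 1 array. Genotype, passage and DMSO concentration are not in the labels, nor is it stated if cultures were separate for each time. Each line came from the tumour of 1 patient, so a difference between the 4 lines is not a difference between kinds of lymphoma.

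Mantle cell lymphoma is a cancer of mature B cells in which a translocation, as a rule, places the cyclin D1 gene under an immunoglobulin enhancer, and most cases also express the transcription factor SOX11. GRANTA519 is known to carry Epstein-Barr virus, whose latent proteins signal through NF-kB and raise a set of host activation genes in B cells. Viral transcripts were not analysed here. B cells also present antigen on MHC class II molecules, and the amount of these molecules is set mainly by the transactivator CIITA.

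The B cell label held in all 4 lines. CD79A and CD79B, the signalling chains of the B cell receptor, CD22, an inhibitory coreceptor, and MS4A1, which encodes CD20, were detected on all 20 arrays. The normalized signal (log2 scale throughout) of CD79A in GRANTA519 was 11.82 ± 0.07 (SD, n = 5 arrays). The 1 probe of PAX5, a B cell transcription factor, was detected on 0 arrays of any line. Cyclin D1 (CCND1) had a signal of 10.55 ± 0.18 in GRANTA519, between MAVER1 (13.30 ± 0.13) and REC1 (6.09 ± 0.15), and was detected on 0 of 5 JEKO1 arrays. CCND1 too was read by 1 probe, so its order over the lines, and the missing signal in JEKO1, rest on that probe alone. SOX11 lay at 8.93 ± 0.20 in GRANTA519, below JEKO1 (9.58 ± 0.22) and above MAVER1 (7.52 ± 0.14) and REC1 (5.74 ± 0.27). CD5, usually present on this lymphoma and read by 1 probe, was detected on 0 of 5 GRANTA519 arrays. It was likewise detected on 0 of 5 arrays of JEKO1 and of REC1, and on 5 of 5 of MAVER1.

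The arrays of GRANTA519 resembled each other more than they resembled those of any other line. Their correlation with each other over probes was 0.983 to 0.993, whereas the median correlation was 0.927 with MAVER1, 0.895 with JEKO1 and 0.885 with REC1. These are descriptions over the same probes and carry no test. Of the tested genes, 12901 in all, the median absolute difference of GRANTA519 was 0.29 to MAVER1, 0.36 to JEKO1 and 0.36 to REC1 on the log2 scale. MAVER1 was thus the nearest line on both measures. The first 3 principal components (36.6%, 28.7% and 18.5% of the variance) separated lines, and the fourth (3.91%) followed time. The share of probes detected was lowest on the 2 h array of GRANTA519 (37.9%) and lay between 43% and 46.9% at its later times.

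At an adjusted p of 0.05 (limma, two-sided, Benjamini-Hochberg over all 12901 genes), GRANTA519 was higher than JEKO1 in 28.3% of genes and lower in 28.3%. It was higher than MAVER1 in 25.2% and lower in 24%, and higher than REC1 in 27.9% and lower in 28.9%. Against the mean of the other 3 lines 27.9% of genes were higher and 27.8% lower. These comparisons share the GRANTA519 arrays and are given side by side only. The p-values measure the spread over the 5 times of a line, not over cultures or lines. With the 4 line means as the only data points, limma called 0 genes higher and 0 lower (619 and 432 at an unadjusted p of 0.05, 645 expected in both directions), and an exact permutation of 1 line against 3 could not go below p = 0.25.

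To find what was particular to this line, a gene was called set apart where GRANTA519 differed from each of the other 3 lines past the threshold, in the same direction and by at least 2-fold. By this rule 386 genes (2.99%) were set apart higher and 191 (1.48%) lower. The same rule set apart 212 (1.64%) and 185 (1.43%) genes in JEKO1, 111 (0.86%) and 95 (0.736%) in MAVER1, and 293 (2.27%) and 257 (1.99%) in REC1. GRANTA519 thus had the largest number of genes set apart higher of the 4 lines, and REC1 the largest number set apart lower. Of the 386 genes, 376 had all 5 GRANTA519 arrays above all 15 others, and of the 191 genes, 188 had them below, against 1008 (7.81%) and 793 (6.15%) of all genes. The rule chose these genes on the same arrays, so this separation largely follows from the choice and is no further support. The same holds where single genes set apart are said below not to overlap. The gap held at each single time for 203 of the genes set apart higher and 86 of those lower, taking at least 2-fold from every other line as the gap. Without the background correction described with the processing, 129 and 53 genes met the rule.

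**Figure D1:**
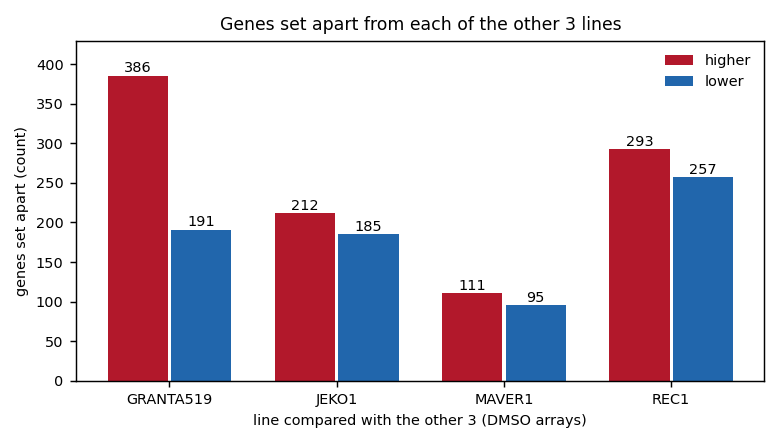
Number of genes (y axis) set apart higher (red) and lower (blue) in each of the 4 lines against the other 3, over the 20 DMSO arrays. GRANTA519 has 386 higher and 191 lower genes, the largest number of higher genes of the 4 lines.

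Some of the genes set apart higher were not above background in any other line. Of the 386, 82 were detected on 0 of the 15 other arrays, and over all genes 90 were detected on all 5 GRANTA519 arrays and 0 of the 15 others. The converse, detection on all 15 others and 0 of 5 GRANTA519 arrays, held for 23 genes. In the order of the gap to the nearest line, the 12 genes with the largest gap were HLA-DRB5, NETO1, PARM1, F13A1, GNG11, DPYSL3, CCL3, CCL3L1, RGS20, FCER2, CCL3L3 and GUCY1A1. Folds are against the nearest of the other lines. Where the dimmer line of a comparison had no detected array, the fold is a lower bound ("at least"), taken against the lowest signal detected on its arrays or the gene's own signal, whichever was higher.

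HLA-DRB5, which encodes a beta chain of the HLA-DR molecule, led the list. Its signal in GRANTA519 was 11.24, 10.99, 10.93, 11.13 and 11.17 at 2, 4, 8, 12 and 24 h, and ranged from 4.22 through a median of 4.48 to 5.28 on the other 15 arrays. All 5 arrays lay above all others, at least 69.1-fold above the nearest line (adjusted p = 4.7e-17 for the weakest of the 3 contrasts). HLA-DRB5 is carried by some HLA haplotypes only and HLA genes vary in sequence under the probe, so presence of the gene and its expression were not separated here.

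NETO1, an auxiliary subunit of glutamate receptors in neurons, had signals of 9.67, 9.77, 10.18, 10.13 and 10.32, and 4.29 to 4.65 (median 4.401) elsewhere. The groups did not overlap and it was at least 32.7-fold higher, although its 3 probes disagreed in size and the other probes gave 1.40 and 1.15 against the mean of the other lines. PARM1, which encodes a mucin-like membrane protein, lay at 9.22, 8.88, 9.56, 9.30 and 9.61 against 4.25 to 4.42 (median 4.31), at least 20.1-fold higher. F13A1, the catalytic A chain of coagulation factor XIII and otherwise a gene of platelets and macrophages, lay at 8.66, 8.71, 8.95, 9.08 and 9.13 against 4.18 to 4.39 (median 4.27), at least 15.2-fold higher.

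GNG11, a G protein gamma subunit, DPYSL3, a cytoskeletal protein of growing axons, and RGS20, which ends signalling by G proteins, were likewise near background in the other lines. GNG11 was at least 17.3-fold higher and DPYSL3 at least 18.7-fold higher. RGS20 was at least 10.9-fold higher. GUCY1A1, a subunit of the nitric oxide receptor guanylate cyclase, was at least 10.8-fold higher, with 7.91 at 2 h and 8.45 to 8.65 at the later times. The groups did not overlap for any of the 4 genes.

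FCER2 encodes CD23, the low-affinity IgE receptor of activated B cells and a host target of Epstein-Barr virus. It had signals of 9.09, 8.96, 8.90, 9.21 and 9.26 in GRANTA519 and of 4.35 to 5.55 (median 4.83) elsewhere, 16.3-fold above the nearest line. CCL3, a chemokine released by activated B cells and macrophages, had signals of 10.35, 10.87, 11.44, 11.44 and 11.61 against 4.90 to 8.01 (median 6.20), 22.8-fold above the nearest line. Both genes were separated from the other lines on every array. CCL3L1 (17.7-fold) and CCL3L3 (16-fold) are near-identical copies of CCL3, so probes of the 3 genes cannot be assumed to read separate transcripts. For all 3 genes the folds are means over the times, and the gap was narrowest at 2 h. CCL3 was then at 10.35 in GRANTA519, 7.565 in JEKO1, 7.81 in MAVER1 and 8.01 in REC1.

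At the other end stood genes that GRANTA519 expressed weakly. SNORA12, a small nucleolar RNA that guides pseudouridylation, had signals of 5.42, 5.58, 5.17, 5.43 and 5.12 against 9.15 to 10.97 (median 10.33), 15.9-fold below the nearest line. IMPA2, an inositol monophosphatase, had 4.82, 4.63, 4.88, 5.30 and 4.69 against 7.96 to 8.76 (median 8.53), 10.8-fold lower. MX1, a GTPase induced by interferon that acts against viruses, had 5.78, 6.03, 5.84, 5.65 and 5.59 against 8.49 to 11.45 (median 9.47), 6.88-fold lower. None of these 3 genes overlapped between the groups. TGFBR2, the type II receptor for TGF-beta, had 5.08, 5.31, 5.85, 5.64 and 5.39 against 7.86 to 8.54 (median 8.28), 6.46-fold lower, and its other probes gave -2.50 and -0.60 against the mean of the lines.

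The remaining genes of that group were also separated on every array. TRPM4, a calcium-activated cation channel, was at least 6.39-fold lower, and SH3BP4, an endocytosis adaptor, at least 4.04-fold lower. GALK1, which phosphorylates galactose, was 6.02-fold lower and CKLF, a chemokine-like factor, 5.65-fold lower. OSBPL10, a lipid transfer protein, was at least 3.97-fold lower and AFF3, a transcriptional elongation factor of lymphoid cells, at least 2.94-fold lower. ARHGAP25, which acts on Rac, was 5.01-fold lower, and PRAME, a cancer-testis antigen, 4.98-fold lower. For AFF3, ARHGAP25 and PRAME the probes disagreed in size, and the weaker probe of ARHGAP25 gave 0.06 against JEKO1.

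**Figure D2:**
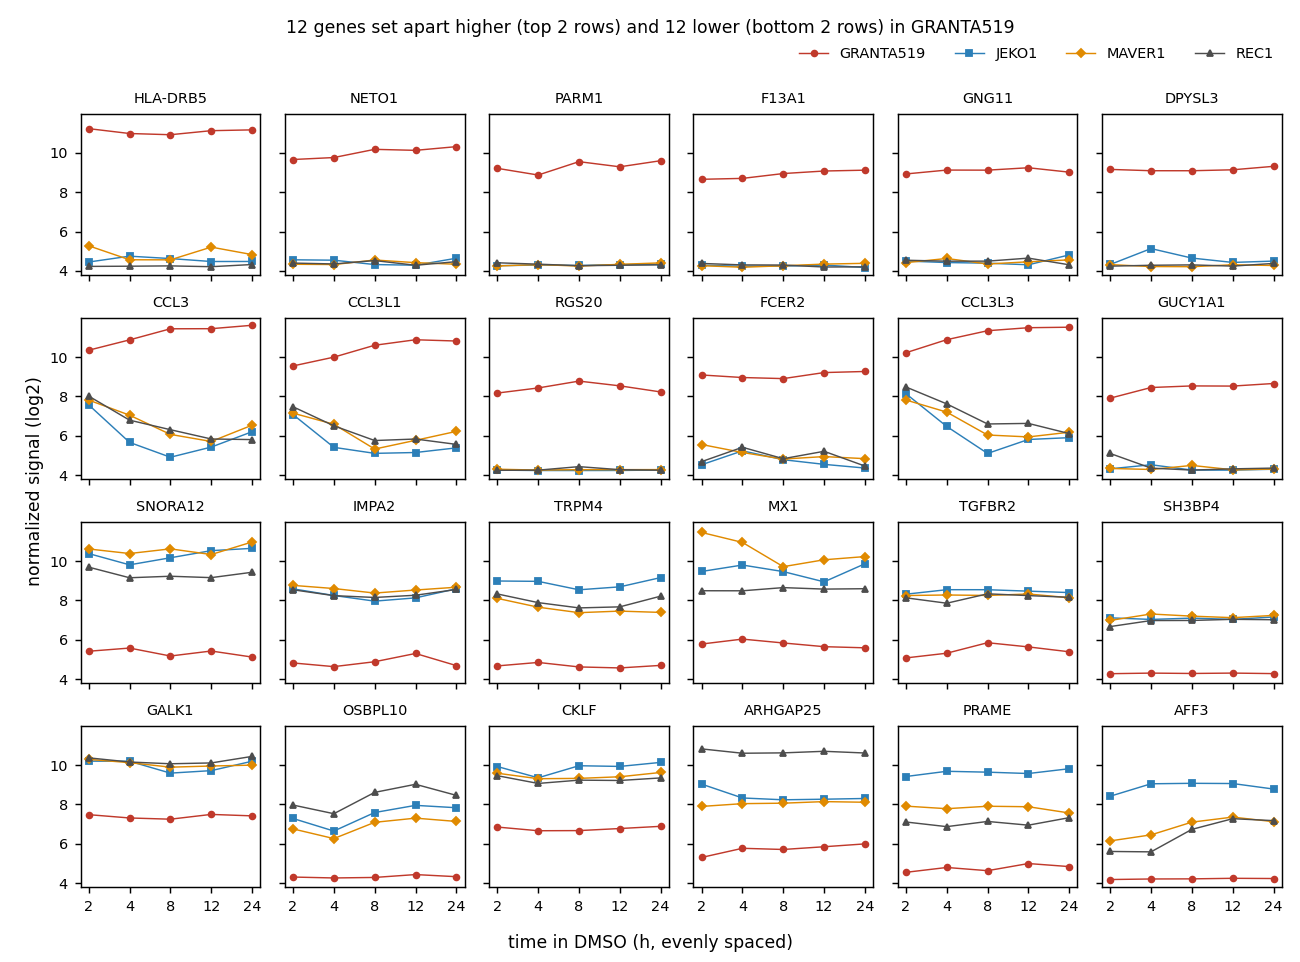
Normalized signal (log2, y axis) on each DMSO array at 2 to 24 h (x axis, evenly spaced) for the 12 genes set apart higher with the largest gap to the nearest line (upper rows) and the 12 lower (lower rows); each point is 1 array and colours mark lines. GRANTA519 (red) lies apart from all 3 other lines at every time in each panel.

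A list of activation genes, drawn up from known effects of the virus, stood high in GRANTA519. Of 35 measured genes known to be raised by Epstein-Barr virus latent proteins, 9 (25.7%) were set apart higher and 0 lower, against 2.99% and 1.48% of all genes. The median difference of the list from the mean of the other lines was 0.90, against -0.02 over all genes, and it was 1.49 to JEKO1, 0.96 to MAVER1 and 0.50 to REC1. The 9 genes were FCER2, CCL3, SLAMF1, FSCN1, MIR155HG, TNFAIP3, FGR, TRAF1 and LTA. REC1 exceeded GRANTA519 for CD40, the costimulatory receptor (9.26 against 8.48), and for EBI3, a cytokine subunit named for its induction by this virus (10.67 against 9.40). CD40 and EBI3 were picked after their values were seen. The list itself, like the other gene lists, was chosen with earlier results of these data known. Whether the virus raised these genes in GRANTA519 was not tested. Viral transcripts were not analysed, and an effect of the virus cannot be separated here from other traits of the line.

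MIR155HG is the host transcript of the microRNA miR-155, a regulator of B cell activation. It was set apart higher, with signals of 10.18, 10.52, 10.61, 10.55 and 10.18 against 5.91 to 9.96 (median 7.72). As a mean over the times it was 3.30-fold above JEKO1, the nearest line (adjusted p = 2.9e-06). At 2 h, however, JEKO1 (9.96) was close to GRANTA519 (10.18), and it lay at 8.21 to 8.55 at the later times. The bead array reads the host transcript and not the mature RNA. The mature product is shown for that reason, with its seed (bases 2 to 8) in capitals, from RefSeq on GRCh38.p14 at chr21:25573983-25574006, plus strand.
hsa-miR-155-5p: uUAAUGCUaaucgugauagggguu

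SLAMF1, a receptor of activated lymphocytes, had signals of 8.18, 8.71, 8.89, 9.05 and 9.02 against 4.18 to 6.52 (median 4.26), 6.69-fold above MAVER1. TNFAIP3, the A20 brake on NF-kB, had 9.04, 9.11, 8.99, 9.14 and 9.39 against 5.55 to 7.85 (median 7.24), higher than the nearest line by 1.68 on the log2 scale. Neither gene overlapped between the groups. FSCN1, an actin-bundling protein, exceeded the nearest line by 2.10 on the log2 scale, FGR, a Src-family kinase, by 1.43, and LTA, the cytokine lymphotoxin alpha, by 1.04. TRAF1, an adaptor of TNF receptors, exceeded it by 1.13, a call that 1 of its 2 probes carried, since the other gave 0.23 against the mean of the lines.

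NF-kB subunits and targets overlapped that list. Of 36 measured, 4 (11.1%) were set apart higher and 0 lower (against 2.99% and 1.48% of all genes), all 4 of them (CCL3, TNFAIP3, TRAF1 and LTA) being members of the virus list too. Against the mean of the other lines 21 were higher and 5 lower, where 27.9% and 27.8% of all genes were, and the median difference was 0.68. NFKB1, a subunit of the factor itself, did not differ from the mean past the threshold (difference 0.29 ± 0.14, SE; adjusted p = 0.074), while NFKBIA, its inhibitor and target, was higher than the mean by 1.09 ± 0.14 (adjusted p = 2.4e-06). NFKB1 and NFKBIA were picked after their values were seen.

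Ligands of the immune system were set apart higher in 8 of 29 measured (27.6%) and lower in 0, against 2.99% and 1.48% of all genes. Besides CCL3, its copies and LTA they comprised CCL2, a monocyte chemokine, IL7 and IL15, growth factors of lymphocytes, and IL32. CCL3 and its copies count as separate members here. Since their probes may read the same transcripts, the share may count 1 signal more than once. IL15 exceeded the nearest line by 1.55 on the log2 scale, IL7 by 1.53 and IL32 by 1.32, and CCL2 was at least 1.29-fold higher. Receptors and their kinases were set apart higher in 5 of 32 (15.6%) and lower in 1 (3.12%). IL6ST, the shared gp130 chain, was 3.99-fold above the nearest line, IL27RA 3.10-fold and IL2RB 3.03-fold. IL13RA1 and IL21R also met the rule. JAK1, the kinase that many of these receptors use, was 2.43-fold lower than in the nearest line.

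Adhesion genes were set apart higher in 7 of 30 measured (23.3%) and lower in 0, against 2.99% and 1.48% of all genes, with a median of 0.90 against the mean of the other lines. CDH2, N-cadherin, had signals of 7.57, 7.72, 7.74, 7.91 and 7.78 against 4.31 to 4.93 (median 4.45), at least 6.78-fold higher. ITGAM, the alpha M integrin chain of myeloid cells, had 7.52, 7.65, 7.56, 7.67 and 7.66 against 4.32 to 5.26 (median 4.67), at least 6.20-fold higher. The groups did not overlap for either gene. ITGAV, a chain of vitronectin receptors, was at least 2.43-fold higher, and ITGAL, ITGB7, JAM2 and LGALS3 completed the 7.

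**Figure D3:**
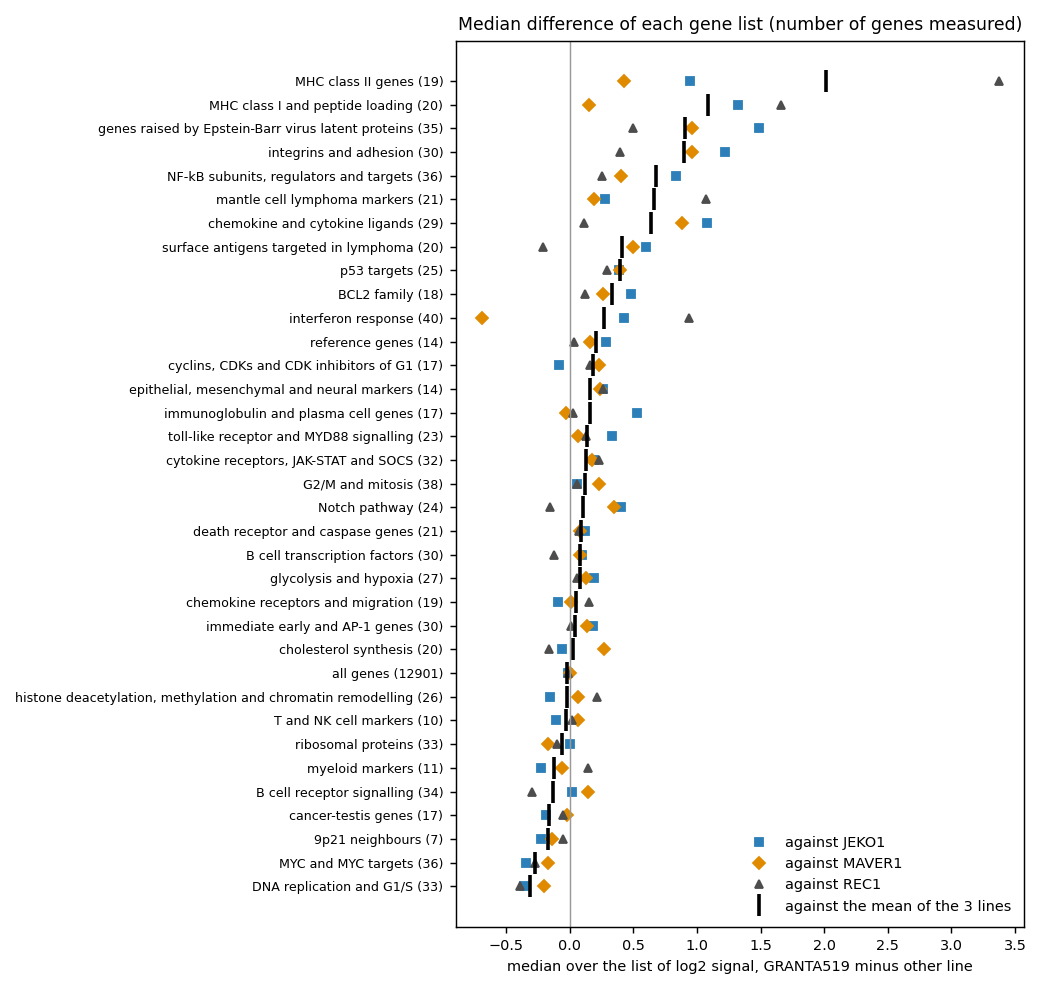
Median over each gene list (rows, with the number of genes measured) of the log2 signal of GRANTA519 minus that of another line (x axis); symbols give each line and the black bar the mean of the 3 lines. MHC class II genes reach 2.01 against the mean and 3.37 against REC1, and all genes lie at -0.02.

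MHC class II genes were high in GRANTA519, but how far depended on the line it was set against. Of 19 measured, 18 were higher than the mean of the other lines and 1 was lower, where 27.9% and 27.8% of all genes were. The median difference was 2.01. Against single lines the median was 3.37 to REC1, 0.95 to JEKO1 and 0.42 to MAVER1, and without REC1 it was 0.60. Only 3 (15.8%) were set apart higher, against 2.99% of all genes. Besides HLA-DRB5 these were HLA-DOB, a chain of a peptide-loading modulator, and HLA-DQB1, the beta chain of HLA-DQ. HLA-DOB had signals of 8.70, 8.63, 8.47, 9.08 and 8.70 against 5.52 to 7.30 (median 6.53), 3.26-fold higher, and HLA-DQB1, a polymorphic gene, was 2.40-fold higher. In bulk RNA, fewer expressing cells and less RNA per cell cannot be told apart.

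REC1 had the lowest level of most genes of the class II molecule. HLA-DRA, the invariant alpha chain of HLA-DR, was at 13.30 in GRANTA519, 12.80 in JEKO1, 12.87 in MAVER1 and 6.12 in REC1. HLA-DPA1, the alpha chain of HLA-DP, followed with 12.41, 10.89, 12.05 and 4.30. CIITA was at 6.77 in GRANTA519, 6.89 in JEKO1, 6.58 in MAVER1 and 4.83 in REC1. These genes, chosen after their values were seen, place GRANTA519 with JEKO1 and MAVER1 for CIITA. HLA-DRB1, another beta chain, was near the level of GRANTA519 (9.78) in MAVER1 (9.50) and near background in JEKO1 (4.93) and REC1 (4.30), with the same reserve about probe and allele as for HLA-DRB5.

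**Figure D4:**
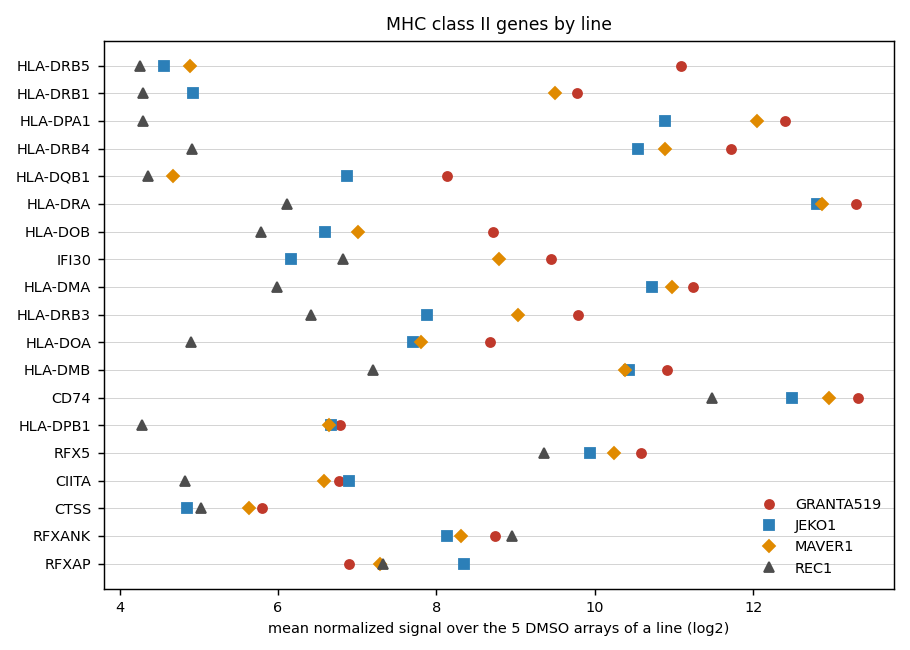
Mean normalized signal over the 5 DMSO arrays of a line (log2, x axis) of the 19 MHC class II genes measured (y axis). GRANTA519 (red circles) is highest for HLA-DRB5 by the widest gap, and REC1 lies at 6.12 for HLA-DRA, where the other 3 lines lie at 12.80 or above.

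MHC class I and peptide-loading genes were higher than the mean in 13 of 20 and lower in 2, with 2 (10%) set apart higher. Of all genes 27.9% were higher than the mean, 27.8% lower, and 2.99% set apart higher. HLA-C was 2.75-fold and HLA-F, a non-classical class I gene, 2.05-fold above MAVER1, the nearest line. The brightest probe of HLA-C gave 2.51, 1.46 and 4.00 against JEKO1, MAVER1 and REC1 on the log2 scale. Its other probe gave 2.25, 2.26 and 2.26. The same reserve about probe and allele applies to it as to HLA-DRB5. B2M, the common light chain, was 13.32 in GRANTA519 and 13.06 in MAVER1. Interferon-response genes showed no common direction: 20 of 40 were higher than the mean and 13 lower. Of the 40, 0 were set apart higher. MX1 and IFI16, a DNA sensor (2.57-fold lower), were set apart lower (5%, against 1.48% of all genes). The list median was 0.93 to REC1 and -0.69 to MAVER1.

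Genes of the p53 response were set apart higher in 5 of 25 measured (20%) and lower in 1 (4%), against 2.99% and 1.48% of all genes. TNFRSF10B, the death receptor DR5, had signals of 9.35, 9.63, 9.23, 9.25 and 9.16 against 6.21 to 7.84 (median 7.37), 3.50-fold above the nearest line, while its other probe gave 0.54, 0.84 and 0.69 against JEKO1, MAVER1 and REC1 on the log2 scale. CDKN1A, the cell cycle inhibitor p21, had 10.96, 11.06, 10.81, 10.52 and 10.55 against 5.22 to 10.43 (median 8.81), 2.45-fold higher. PMAIP1, which encodes the killer protein NOXA, exceeded the nearest line by 1.22 on the log2 scale, PHLDA3, an inhibitor of AKT, at least 1.74-fold higher, and SESN1 exceeded the nearest line by 1.07. The groups did not overlap for TNFRSF10B or CDKN1A. GADD45A, a stress protein, was 2.05-fold lower, close to the threshold of the rule, and its other probe gave -0.93 against MAVER1. MDM2, the p53 ligase and target, was higher than the mean by 0.58 ± 0.14 (SE; adjusted p = 0.0021), and was picked after its values were seen.

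Within the BCL2 family 2 of 18 genes (11.1%) were set apart higher and 1 (5.56%) lower, against 2.99% and 1.48% of all genes. BIK was 3.62-fold higher and PMAIP1 as above, both promoters of cell death, and HRK, another such gene, was at least 1.67-fold lower. Among 21 death receptor and caspase genes TNFRSF10B was set apart higher and CASP9, the initiator caspase of the mitochondrial pathway, lower (3.44-fold, with -0.61 against MAVER1 by its other probe). Each was 4.76% of that list. Of 17 genes of the G1 phase, CDKN1A and CCND2 (11.8%) were set apart higher. CCND2, cyclin D2, had signals of 8.38, 8.34, 8.16, 8.30 and 8.56 against 4.20 to 6.46 (median 4.395), 3.82-fold above MAVER1 and near background in JEKO1 and REC1. CCND1 and CCND2 were each detected on all 5 arrays of GRANTA519 and of MAVER1.

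Of 36 genes of MYC and its targets, 4 (11.1%) were set apart lower and 0 higher, against 1.48% and 2.99% of all genes. Against the mean of the other lines 18 were lower and 7 higher (median -0.27), where 27.8% of all genes were lower and 27.9% higher. MYC, the growth-promoting transcription factor, had signals of 8.21, 8.73, 9.12, 9.39 and 9.45 at 2, 4, 8, 12 and 24 h, against 10.65 to 11.91 (median 11.21), 3.76-fold below the nearest line. Both of its probes gave this direction. NOP56, a core protein of box C/D ribonucleoproteins, was 2.87-fold lower, and MRTO4, a ribosome assembly factor, 2.52-fold lower. SHMT2, a mitochondrial enzyme of serine metabolism, was lower by 1.04 than in the nearest line. No overlap between groups was seen for MYC, NOP56 or MRTO4.

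Proliferation lists held few genes set apart. Of 33 genes of DNA replication and the G1/S step, 0 were set apart in either direction, and 20 were lower than the mean of the other lines and 2 higher (median -0.31), where 27.8% and 27.9% of all genes were. PCNA, the sliding clamp of replication, had the largest difference from the mean among them and reached 8.63 to 9.34 in GRANTA519 against 9.58 to 10.81 elsewhere, 1.59-fold below MAVER1. Of 38 genes of G2/M, 17 were higher than the mean and 4 lower, and CDC25B, a phosphatase that starts mitosis, was set apart lower (2.76-fold). That was 2.63% of the list, against 1.48% of all genes.

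B cell regulators differed gene by gene. Of 30 transcription factors, 3 (10%) were set apart higher and 2 (6.67%) lower, against 2.99% and 1.48% of all genes. FOXO1, needed for B cell development, had signals of 6.26, 6.16, 6.11, 5.71 and 5.81 against 7.79 to 9.14 (median 8.21), 4.22-fold lower, and AFF3 is described above. MEF2C, which acts in B cell activation, was 2.95-fold higher, LMO2, a germinal centre factor, at least 2.73-fold higher, and ID2, an inhibitor of E proteins, 2.02-fold higher. FOXO1 did not overlap between the groups. Of 34 genes of B cell receptor signalling, FCRL2, an inhibitory receptor, was 2.68-fold lower and VAV3, an exchange factor, at least 1.54-fold lower, although its 3 probes ranged widely. CXCR5, the follicle-homing receptor, was 2.35-fold below the nearest line and RGS1, which dampens chemokine signals, 2.02-fold above it, among 19 chemokine receptor and migration genes. The other probes of CXCR5 gave -0.21 and -0.33 against MAVER1, its nearest line, and the other probe of FCRL2 gave -0.75 against JEKO1.

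Further members completed the lists of the lymphoma and of differentiation. The shares set apart higher were 14.3% of the mantle cell lymphoma list and 11.8% of the immunoglobulin and plasma cell list. Of the surface antigens 10% were set apart higher and 5% lower. Over all genes 2.99% were set apart higher and 1.48% lower. Of 21 mantle cell lymphoma genes FCER2, PDGFA, the growth factor chain (3.43-fold), and CD27, a costimulatory receptor of memory B cells (2.62-fold), were set apart higher. ROR1, a kinase-like receptor studied as a target in this lymphoma, was 3.35-fold lower, among 20 surface antigens, and 1 of its 3 probes showed no difference. SDC1, the plasma cell antigen CD138 (2.40-fold), and CAV1, caveolin (2.44-fold), were set apart higher among 17 immunoglobulin and plasma cell genes. The other probes of PDGFA, SDC1 and CAV1 gave -0.12, -0.32 and 0.37 against the mean of the lines, so the calls of these genes rested on 1 probe each.

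Of 24 Notch genes NOTCH4 was set apart higher (at least 2.81-fold) and DTX1, a Notch target (3.72-fold), and NOTCH2 (at least 1.39-fold) lower. These were 4.17% and 8.33% of the list, against 2.99% and 1.48% of all genes. The lists that follow here held 3.7% to 6.67% set apart higher and at most 3.85% lower. Of 30 immediate early genes SPRY2, a feedback inhibitor of MAP kinase signalling (4.39-fold), and FOS (at least 2.08-fold) were set apart higher, and MYC lower. IRAK2 was the only gene of 23 in the toll-like receptor list to be set apart (2.09-fold higher). SLC2A3, a glucose transporter, was 4.49-fold higher and ENO1, a glycolytic enzyme, 2.00-fold lower among 27 genes of glycolysis. SMARCA2, an ATPase of the SWI/SNF complex, was 2.47-fold higher and DNMT3B, a DNA methyltransferase, 2.05-fold lower among 26 chromatin genes, and 1 of the 4 probes of DNMT3B met the rule.

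Lists meant as comparison held few such genes. The 20 genes of cholesterol synthesis and the 14 reference genes held 0 set apart. Of 33 ribosomal protein genes RPL22 (3.03%, against 1.48% of all genes) was set apart lower (2.01-fold). The 17 cancer-testis genes held PRAME only (5.88%), set apart lower.

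Markers of other cell types were mixed. Set apart higher were 27.3% of the myeloid markers and 14.3% of the epithelial, mesenchymal and neural ones, against 2.99% of all genes. Of 10 T and NK cell markers measured, 0 were set apart, CD3D and CD3E were detected on 0 GRANTA519 arrays, and the summed normalized signal (linear scale) was 287.8 to 314.8 against 287.8 to 1509 over the other lines. Of 11 myeloid markers 3 were set apart higher, ITGAM, MS4A7 (5.60-fold), a relative of CD20 in macrophages, and VCAN, a matrix proteoglycan (at least 1.54-fold). The defining markers CSF1R and MPO were detected on 0 GRANTA519 arrays and LYZ on 1, CD14 was detected on 5 in every line, and the sum was 1736 to 1994 in GRANTA519 and 849 to 1721 elsewhere. Of 14 epithelial, mesenchymal and neural markers PDGFRB, a growth factor receptor of mesenchymal cells (at least 3.29-fold), and ACTA2, smooth muscle actin (5.95-fold), were set apart higher. KRT8 was detected on 0 GRANTA519 arrays, EPCAM on 2, and COL1A1 and PECAM1 on 5 each, and the sum was 4698 to 5259 against 947.4 to 3418. Their part in the adhesion and myeloid results was not tested.

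Metallothioneins, small proteins that bind zinc and copper, were singled out after their values had been seen. Of the 6 genes measured, MT1E, MT1G, MT1H and MT2A were set apart higher, and MT1F and MT1X were not. Over all genes 2.99% were set apart higher. Because the family was picked by its values, its count is no further support. MT2A had signals of 11.06, 11.10, 11.17, 11.12 and 10.53 against 5.998 to 8.47 (median 7.17), 6.60-fold above the nearest line. MT1H had 8.99, 9.23, 9.40, 9.34 and 8.34 against 4.22 to 6.16 (median 4.44), 9.59-fold higher. No array of another line reached those of GRANTA519 for either gene.

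MT1G was 8.15-fold and MT1E 6.86-fold above JEKO1, the nearest line for these 2 genes, and MT1F was 0.98 above JEKO1 on the log2 scale, just under the 2-fold limit. MT1X had 9.48, 9.71, 9.60, 9.48 and 8.96 against 5.16 to 9.31 (median 8.77) and overlapped with JEKO1 and MAVER1, and its difference from MAVER1 was 0.44 (largest adjusted p of the 3 contrasts = 0.12). Metallothionein genes are near-identical in sequence, so their probes may not be independent.

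Metallothionein genes are known to be induced by metals through the factor MTF1, which binds metal response elements. Promoter windows of 300 bases from RefSeq, GRCh38.p14, are shown for 3 of the measured genes, MT2A, MT1H and MT1X. They are reference sequence and were not read from any of the 4 lines. A link between the matches and the levels in the lines was not tested. The core letters TGCNCNC, searched on both strands, are in capitals, and the matches within a window do not overlap each other. The windows hold 8 matches in MT2A (chr16:56608334-56608633, plus strand), 8 in MT1H (chr16:56669564-56669863, plus strand) and 4 in MT1X (chr16:56682220-56682519, plus strand). Of 35116 promoter windows of the same length 55.9% hold at least 1 match, 2.94% at least 4 and 0.0712% at least 8. A match is a description of letters and not of binding.
MT2A: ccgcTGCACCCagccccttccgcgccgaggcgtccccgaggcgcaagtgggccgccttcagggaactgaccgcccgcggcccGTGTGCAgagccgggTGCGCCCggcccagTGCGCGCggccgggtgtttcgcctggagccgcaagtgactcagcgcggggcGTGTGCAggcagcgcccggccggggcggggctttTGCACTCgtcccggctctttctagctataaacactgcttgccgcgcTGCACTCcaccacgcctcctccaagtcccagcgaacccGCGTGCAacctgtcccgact
MT1H: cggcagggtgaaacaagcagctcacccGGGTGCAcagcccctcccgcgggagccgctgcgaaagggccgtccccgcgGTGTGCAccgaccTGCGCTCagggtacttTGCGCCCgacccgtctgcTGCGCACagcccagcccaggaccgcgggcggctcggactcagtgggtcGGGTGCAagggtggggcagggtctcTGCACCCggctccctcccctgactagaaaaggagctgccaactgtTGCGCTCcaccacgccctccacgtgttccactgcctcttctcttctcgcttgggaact
MT1X: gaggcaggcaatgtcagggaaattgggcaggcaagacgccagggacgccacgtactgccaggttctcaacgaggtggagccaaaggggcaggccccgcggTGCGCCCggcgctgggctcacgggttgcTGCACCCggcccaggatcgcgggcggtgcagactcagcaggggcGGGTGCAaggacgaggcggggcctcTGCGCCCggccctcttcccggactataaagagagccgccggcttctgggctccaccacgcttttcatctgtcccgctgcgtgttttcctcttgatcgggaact

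Small nucleolar and Cajal body RNAs, also singled out afterwards, were lower in GRANTA519. These RNAs guide modification of ribosomal and spliceosomal RNA. Of 168 measured, 19 (11.3%) were set apart lower and 0 higher, against 1.48% and 2.99% of all genes. Against the mean of the other lines 116 were lower and 1 higher (median -0.47), where 27.8% and 27.9% of all genes were. SNORA12, given above, had the largest gap, and SCARNA13 was lower by 1.92 than in the nearest line on the log2 scale. Many of these RNAs are copied in the genome and lie within introns of other genes, so a probe may read more than 1 of them or its host.

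Where genes lie was examined through the RefSeq order, as runs of 3 or more tested neighbours set apart in the same direction. There were 6 such runs. NOP56, with SNORD110, SNORD56 and SNORD57, small nucleolar RNAs encoded within it, and its neighbour IDH3B, a subunit of isocitrate dehydrogenase, formed the longest, all lower. SNORD56 had signals of 5.57, 5.25, 5.36, 5.52 and 5.17 against 6.90 to 8.74 (median 7.47), 3.75-fold lower, SNORD57 was 3.08-fold and SNORD110 2.56-fold lower, and IDH3B 2.10-fold lower. SNORD3D, SNORD3A and SNORD3C, near-identical U3 genes, formed a second lower run. The higher runs were TMX3, CD226 and RTTN, then SDC4, SYS1 and DBNDD2, then VGF, NAT16 and PLOD3, and SMARCA2, VLDLR and PUM3. DBNDD2 was 8.67-fold higher and the other 11 genes of the higher runs at least 1.54-fold. With other processing or with arrays left out, every run had members that lost the call. Of the genes in runs, only NOP56, TMX3, RTTN and DBNDD2 kept it in all alternatives. The difference to the nearest line shrank as far as 0.35 for VLDLR, 0.55 for CD226, 0.59 for SDC4 and -0.52 for SNORD3C on the log2 scale.

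**Figure D5:**
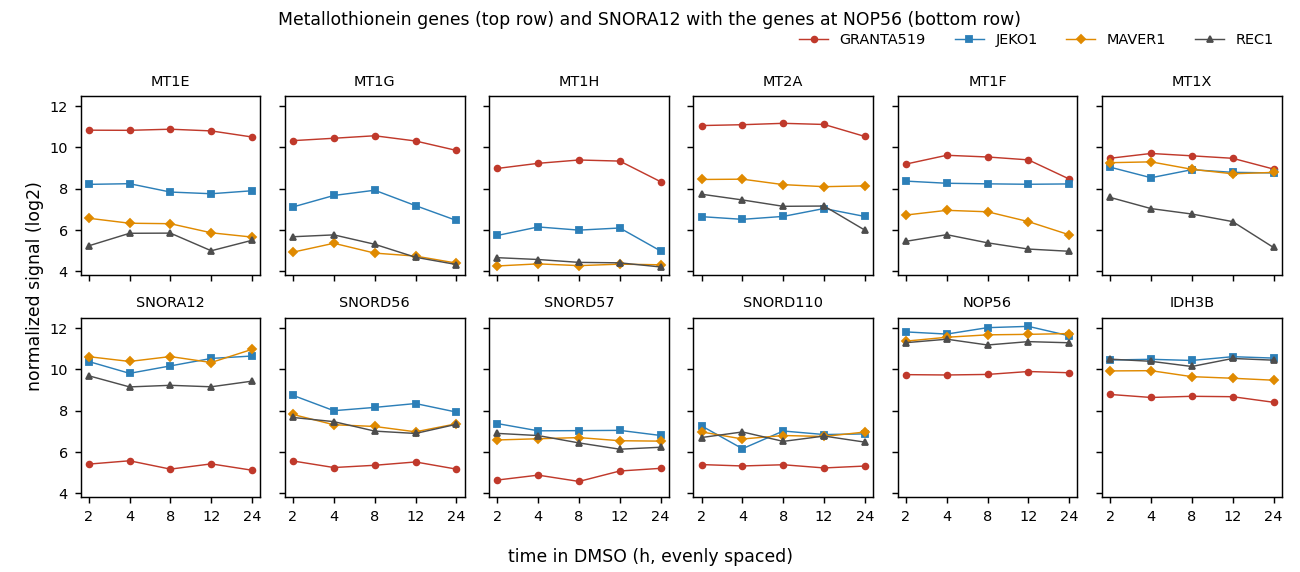
Normalized signal (log2, y axis) on each DMSO array at 2 to 24 h (x axis, evenly spaced) for 6 metallothionein genes (upper row) and for SNORA12 and the run at NOP56 (lower row). At each time GRANTA519 (red) is above every other line in all 6 metallothionein genes, by the narrowest gap in MT1X, and below every other line in the lower row.

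At 9p21, a region deleted in many lymphomas, 7 neighbours were measured. Of these 1 (14.3%) was set apart higher and 1 (14.3%) lower, against 2.99% and 1.48% of all genes. KLHL9 was detected on 0 GRANTA519 arrays and was at least 3.33-fold lower, with signals of 4.30, 4.44, 4.72, 4.22 and 4.45 against 6.23 to 7.89 (median 7.35). The groups did not overlap. FOCAD was 2.86-fold higher. MTAP, a methionine salvage enzyme, was near background in GRANTA519 (4.69) and MAVER1 (4.56) and expressed in JEKO1 (7.84) and REC1 (8.26). CDKN2A, which encodes p16, was detected on 0 arrays of GRANTA519, MAVER1 and REC1. The arrays do not measure gene copies. MTAP and CDKN2A were chosen after their values were seen.

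Time courses of GRANTA519 were compared with those of the other lines by their slopes. The slope on log2 hours differed between GRANTA519 and the mean of the other lines for 0 genes (0%) in the positive and 4 (0.031%) in the negative direction, and at an unadjusted p of 0.05 for 709 genes against 645 expected. A slope that missed the threshold is not shown to be the same, as for CCL3L3, with a difference of 0.97 ± 0.18 (SE; adjusted p = 0.079). RGCC, a regulator of the cell cycle, fell in GRANTA519 from 9.52 at 2 h through 8.75, 7.44 and 6.92 to 7.08 at 24 h, and its slope was lower by 0.74 ± 0.12 per doubling of time (SE, adjusted p = 0.023). RRAD, a small GTPase, had 6.21, 6.07, 5.48, 5.03 and 4.73 and stayed near background elsewhere (slope difference -0.46 ± 0.06, adjusted p = 0.0093). ANTXR2, an anthrax toxin receptor, had a difference of -0.55 ± 0.08 (adjusted p = 0.014), and MNS1, a protein of sperm flagella, of -0.41 ± 0.07 (adjusted p = 0.031). With hours in place of log2 hours, 0 genes passed in the negative direction. Without the 2 h array of GRANTA519 the adjusted p was 0.501 for RGCC, 0.138 for ANTXR2 and 0.545 for MNS1.

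Calls near the 2-fold limit hung on single arrays. Leaving out the 24 h array of GRANTA519 took GADD45A to -0.91, DNMT3B to -0.93, SNORD3A to -0.89, SYS1 to 0.84, RGS1 to 0.94 and PUM3 to 0.99, all differences from the nearest line on the log2 scale. Without its 12 h array ID2 was at 0.95 and ENO1 at -0.96, and without its 8 h array RPL22 was at -0.98. HLA-F was at 0.98 without the 4 h array of MAVER1, and IRAK2 at 0.91 without the 4 h array of REC1. NOTCH2 was at -0.97 and VLDLR at 0.98 without the 4 h array of JEKO1. All of these stayed past the adjusted p threshold and lost the fold only.

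Other genes lost the 2-fold call when the background was not subtracted. Among those described by group these were PDGFA, FCRL2, VAV3, MEF2C, LMO2, ID2, CAV1, SDC1, TRAF1, IRAK2, HLA-DQB1, HLA-F, RGS1, CXCR5, ITGAV, IL2RB, JAK1, BIK, HRK, CASP9, PHLDA3, GADD45A, NOTCH4, NOTCH2, FOS, ENO1, ROR1, DNMT3B, VCAN, PDGFRB and RPL22. The call was also lost for FOCAD and KLHL9 at 9p21 and for SNORD56, SNORD57, SNORD110 and IDH3B beside NOP56. The genes listed are not all of the 48 named genes that lost the call in this setting. The 24 genes with the largest gaps, the metallothioneins set apart, MYC, FOXO1, CDKN1A, TNFRSF10B, SLAMF1, TNFAIP3, CDH2, ITGAM and HLA-DOB met the rule without the subtraction.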

How the data were processed

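The deposited non-normalized table held intensity values of 47231 probes on 40 arrays, and GenomeStudio is the tool that the submitters' processing notes name, without a version. It has no detection p-values or control probes. The authors' deposited series matrix holds log2 values of the same arrays, with column medians of 6.706 to 6.707, and served as an alternative. How it was normalized was not given in the sources used. Its scale was read from the values as log2.

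Background was set per array at the mode of the log2 signals, corrected by the normal-exponential model with an offset of 16 and quantile normalized over 40 arrays with limma 3.58.1 in R 4.3.3, since neqc needs control probes. A probe was detected at a one-sided p of 0.01, and probes detected on at least 4 of the 20 DMSO arrays were kept (24813, of which 17390 had 1 symbol). A gene was represented by its brightest probe, which gave 12901 genes. Of the 47231 probes, 30113 had 1 symbol, 8 had several and 17110 had none here; 30074 of the symbols' probes matched RefSeq names. Quantile normalization hides a change shared by all transcripts, and the number of arrays limits the precision. lmFit and eBayes were fitted with line and time as fixed terms, so that arrays of the same time were matched across lines, as the labels' times allow. Genes were named by fixed ranks, lists, markers and runs, with those picked after seeing values marked as such, and remaining names complete the count of a list. The members, the 34 gene lists and the tests were chosen with earlier results of these data known. The test was checked on simulated data with independent noise on each array and line differences only in chosen genes. That check cannot show how well the times of a line stand in for replicates.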

Additional observations from a re-analysis of the deposited data

Results flagged for a closer look

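Among the named genes, a Dixon test on the 5 GRANTA519 arrays singled out 7 of 131 genes for 1 array that lay far from the rest. Chance gives about 1 in 20 groups, and 36 of 524 groups over all 4 lines did so. GUCY1A1 was 7.908 at 2 h and at least 8.449 at the other times. FOCAD was 7.162 at 4 h, RTTN 9.501 at 4 h, and COL1A1 5.615 at 2 h, each below the other arrays. NOTCH2 was 4.349 at 24 h, above the other arrays and near background. MT1E (10.51) and MT2A (10.53) were lowest at 24 h.

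The slope over time differed between GRANTA519 and the other lines for 4 genes by the test of the difference itself. The differences were -0.4622 for RRAD, -0.5543 for ANTXR2, -0.7385 for RGCC and -0.4051 for MNS1, on the log2 scale per doubling of time.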

How the results depend on the processing

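Counts of genes set apart higher in GRANTA519 (386) and of genes set apart lower in GRANTA519 (191) depended on the treatment of low signals and on the fold required. They were 129 and 53 without background correction, 118 and 43 from the deposited series matrix, and 215 and 88 with a larger offset, and requiring detection on all 20 arrays left 104 higher. At 1.5-fold they were 787 and 569, at 4-fold 98 and 21, and with no fold 1493 and 1301. Without MAVER1 they were 663 and 397, and without REC1 318 lower. Leaving out single replicates gave 363 to 397 and 188 to 197. Higher and lower counts against the mean were 0 and 0 with the 4 line means and 420 and 237 with line as a random block. Leaving out single replicates gave 3357 to 3697 and 3314 to 3630 against the mean, 3502 to 3681 and 3433 to 3689 against JEKO1, 3037 to 3384 and 2837 to 3247 against MAVER1, and 3446 to 3757 and 3542 to 3827 against REC1. Time trends, 0 positive and 4 negative, were 3 and 2 without background correction and with the series matrix, 1 and 1 without the 2 h or 8 h arrays, 0 negative without the 4 h or 12 h arrays or with hours in place of log2 hours, and 4 positive without the 24 h arrays, and single replicates gave 0 to 4 and 1 to 7. None of the 106 named genes set apart changed direction in the alternatives run. Among the other named genes the difference to the nearest line changed sign where another line became the nearest, as for CCND1 (4.47 without MAVER1), SOX11 (1.41 without JEKO1), MTAP (-3.15 without MAVER1) and CD22 (0.80 without REC1), and for some differences near 0. With no replicate block (the time term left out) 386 and 191 genes were set apart and 0 of the named calls changed. Of the 106 named genes set apart the call was lost in 48 without background correction, in 53 with the series matrix and in 32 with a larger offset. Their differences had a median of 58.8%, 55.8% and 76.7% of their size. The mean of all probes lost 8 calls. The cause of these shifts was not tested. Signal over background limits the low genes.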
